A study of Arabidopsis thaliana with 8 samples.

Results

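Small heat shock proteins and the chaperone HSP101 were followed here at 6 of the 22746 probe sets tested. They were chosen by gene name, with earlier results of these data known: HSP17.4, HSP18.2, HSP17.6II, HSP17.6A, HSP22.0 (ATHSP22.0 in the annotation) and HSP101. The RNA came from mature, fully expanded leaves of Arabidopsis thaliana, wild type of the strain Columbia-0, kept under a 12 h photoperiod. Plants aged 4 weeks were given clothianidin, imidacloprid or salicylic acid, each at 4 mM, and were harvested after 4 days beside untreated plants of the same genotype and age. Each of the 4 groups held 2 Affymetrix arrays, each made from 100 mg of leaf tissue of a separate experiment. Clothianidin and imidacloprid are neonicotinoid insecticides that share a nitroguanidine-type group, which is open-chained in clothianidin and closed into a ring in imidacloprid. Salicylic acid is a defence hormone of plants.

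Small heat shock proteins bind unfolding proteins and hold them in a state from which they can be refolded, and HSP101, a ring-forming ATPase of the ClpB family, pulls proteins out of aggregates with help from Hsp70. In leaves these genes are best known for being nearly silent at normal temperature and strongly induced by heat and by other stresses that unfold proteins, through heat shock transcription factors. HSP17.4 and HSP18.2 belong to the cytosolic class I of the small heat shock proteins, HSP17.6II and HSP17.6A to the cytosolic class II, and HSP22.0 to the endoplasmic reticulum.

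The identities of the probe sets have unequal support. HSP22.0 (255811_at, AT4G10250, chromosome 4) is the 1 gene of the 6 that the probe annotation names. The probe sets of the other 5 are not in that annotation and carry the genes given with the choice of members: HSP17.4 (252515_at, AT3G46230, chromosome 3), HSP18.2 (247691_at, AT5G59720, chromosome 5), HSP17.6II (250351_at, AT5G12020, chromosome 5), HSP17.6A (250296_at, AT5G12030, chromosome 5) and HSP101 (260248_at, AT1G74310, chromosome 1). HSP17.6II and HSP17.6A are neighbours, with 0 annotated genes between them in the TAIR10.1 gene order. Cross-hybridisation among these related genes was not tested.

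Expression is given on the log2 scale, 1 value per probe set and array. A value under 2.49, the mean of the 25th percentiles of the 8 arrays, is near background. The leaf genes RCA, SBPASE and PORB, 3 measured of 15 listed leaf markers, lay between 8.96 and 14.37 on all arrays. Here and below, a listed gene counts as measured only where the probe annotation names a probe set by that single locus. A gene not counted may still have a probe set on the arrays. Of the markers of other tissues and cell types, the root hair gene EXPA7 stayed between 1.96 and 2.01 and the pollen gene AT5G45880 between 2.32 and 2.41, both near background, the root gene PYK10 ranged from 2.61 to 9.09 and the stomatal lineage gene FMA from 3.15 to 5.59. A control for RNA quality, the log2 signal at the 3′ end of actin minus that at its 5′ end, is higher where RNA is degraded, and ranged from 0.74 on salicylic acid replicate 1 to 1.75 on clothianidin replicate 2 and 2.17 on untreated replicate 2.

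Across the 8 arrays the 6 genes shared one order of group means. Imidacloprid gave the highest mean, followed by clothianidin, salicylic acid and untreated leaves, for 6 of the 6 genes. Imidacloprid replicate 2 was the highest array for each of the 6. The shares of all probe sets with this order or this highest array were not counted. In untreated leaves 3 of the 12 values fell under 2.49, and none of the 36 values from treated leaves did. By the definition of that level, about 25% of the values of all probe sets lie under it. In leaf RNA, more cells expressing a gene and more transcript per cell cannot be told apart.

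**Figure D1:**
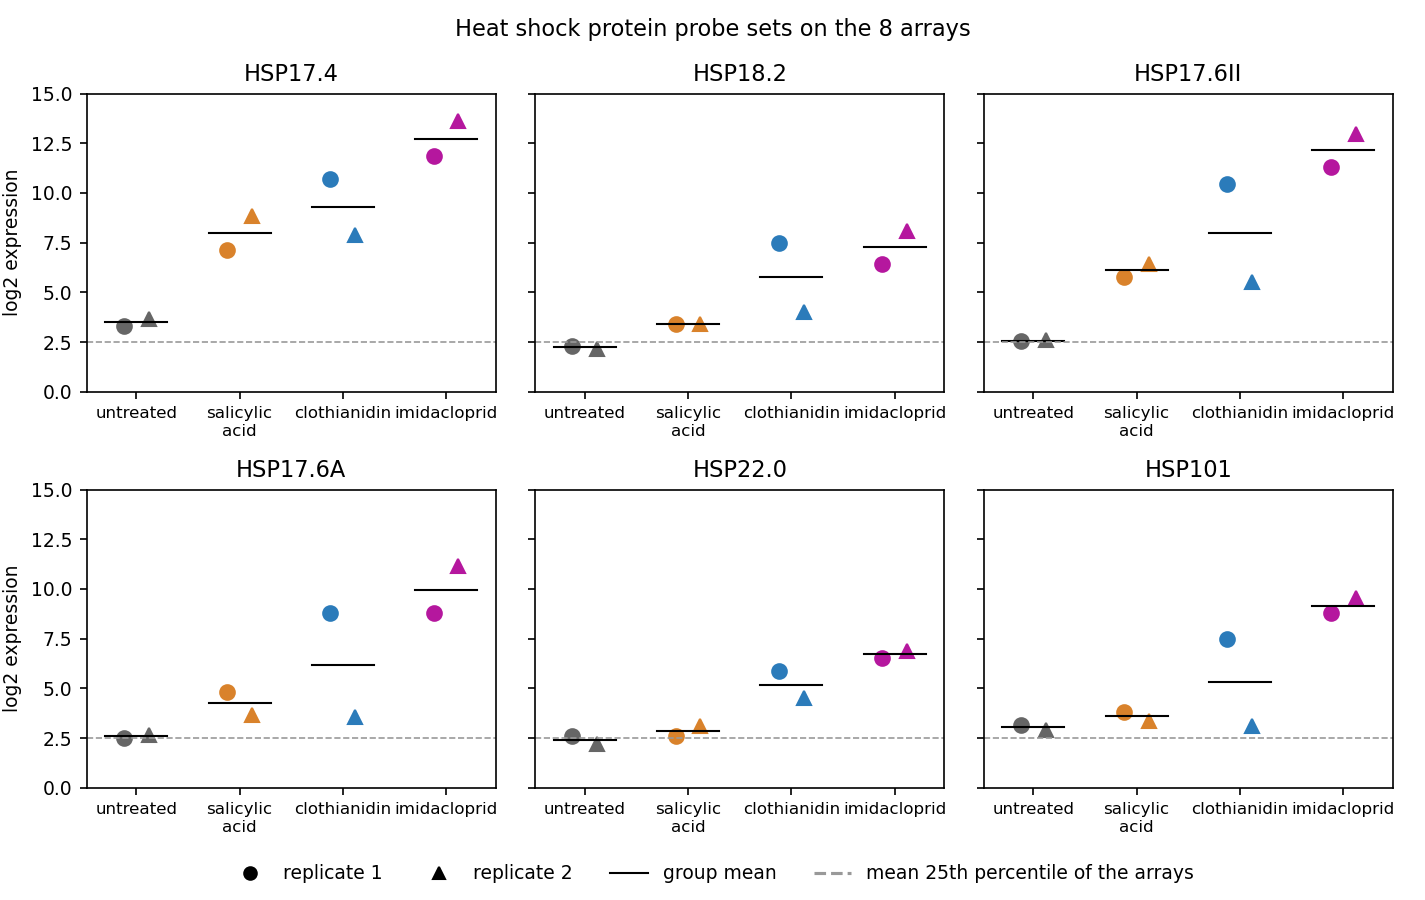
Log2 expression (y axis) of the 6 genes on each array, by group (x axis); circles are replicate 1, triangles replicate 2, black bars the group means and the dashed line the mean 25th percentile of the arrays (2.49). Both imidacloprid arrays lie far above both untreated arrays in every panel, the untreated arrays are the lowest 2 except for HSP22.0 and HSP101, and the clothianidin arrays lie apart from each other.

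Imidacloprid was compared with no treatment to see which transcripts differ in leaves exposed to this insecticide. All 6 heat shock genes were higher on both imidacloprid arrays than on both untreated arrays, a separation in that direction that 40.2% of all probe sets also had. The log2 differences ran from 4.30 to 9.58 with a median of 6.75, beside a median of 0.02 over all probe sets. In limma's test over all probe sets 0 of the 6 passed an adjusted p under 0.05, a threshold passed by 0.312% of all probe sets, with adjusted p between 0.0666 and 0.146. With limma's trend and robust prior 1 of the 6 passed, HSP22.0 at adjusted p = 0.0479. An unadjusted limma p under 0.05 was reached by 6 of the 6, all of them higher, and by 8.71% of all probe sets in that direction. The genes and the gene lists below were chosen with earlier results of these data known. Their counts and ranks beside all probe sets, here and below, are therefore descriptions. The 3 leaf genes had lower means after imidacloprid and did not pass, with differences of -0.38 for RCA, -1.84 for SBPASE and -2.64 for PORB, and FMA differed by -1.53; the part of this in the differences was not tested.

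In class I, HSP17.4 measured 3.29 and 3.68 in untreated leaves, and 11.86 and 13.61 after imidacloprid. It was low on both untreated arrays and near the top of the scale on both treated ones. Its log2 difference of 9.25 (SE 1.22; 95% confidence interval 6.07 to 12.43; limma adjusted p = 0.0733), a 608-fold difference on a low baseline, was the 3rd highest of the 22746. HSP18.2 read 2.31 and 2.17 without treatment and 6.43 and 8.10 with imidacloprid. Both untreated values of HSP18.2 lay under 2.49, so the size of its difference, 5.03 (SE 1.24; 1.79 to 8.27; adjusted p = 0.137), is not exact.

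In class II, HSP17.6II measured 2.57 and 2.58 on the untreated arrays, and 11.32 and 12.98 on the imidacloprid arrays. The untreated pair differed by 0.01 and sat just above the background level. A difference of 9.58 (SE 1.71; 5.12 to 14.03; adjusted p = 0.0937) placed HSP17.6II 2nd among all probe sets, at 763-fold on a baseline so close to background that the fold is not exact. Its neighbour HSP17.6A measured 2.52 and 2.64 against 8.78 and 11.15. The 2 imidacloprid arrays of HSP17.6A stood 2.37 apart, the widest replicate gap of the 6 genes in this group. Its difference was 7.38 (SE 1.90; 2.42 to 12.34; adjusted p = 0.146). The untreated mean of HSP17.6A, 2.58, was also close to background, so the size of this difference is not exact.

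HSP22.0, of the endoplasmic reticulum, measured 2.63 and 2.18 in untreated and 6.54 and 6.88 in imidacloprid leaves. Its replicates lay close together in both groups (SD 0.31 and 0.24, n = 2 each), and of the 6 genes it had the smallest difference, 4.30 (SE 0.51; 2.97 to 5.64), and the smallest p (adjusted p = 0.0666 in limma). Its untreated mean, 2.41, lay under 2.49, so the size of this difference is not exact either. HSP101, the disaggregase, measured 3.18 and 2.91 in untreated leaves, and 8.79 and 9.52 after imidacloprid. The groups were far apart, by 6.11 (SE 1.46; 2.31 to 9.92; adjusted p = 0.131) or 69.1-fold. The untreated values of HSP101 lay above 2.49 but were low, at percentiles 38.3 and 35.2 of their arrays, so this fold rests on a low baseline.

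Whether these genes passed the threshold changed with the settings of the fit. The main fit pooled the spread over all groups, and a group left with 1 array adds nothing to that spread. Beyond this, the reason was not tested. With only the imidacloprid and untreated arrays fitted, 0 of these genes passed. Their limma adjusted p then ran from 0.0550 for HSP101 to 0.117 for HSP18.2. Without clothianidin replicate 1, or without clothianidin replicate 2, HSP22.0, HSP101 and HSP17.6II passed at limma adjusted p = 0.0471, 0.0405 and 0.0494, with the same differences. HSP22.0 and HSP17.4 passed with dim probe sets left out (0.0419 and 0.0456) and with arrays centred on their medians (0.0460 and 0.0480).

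**Figure D2:**
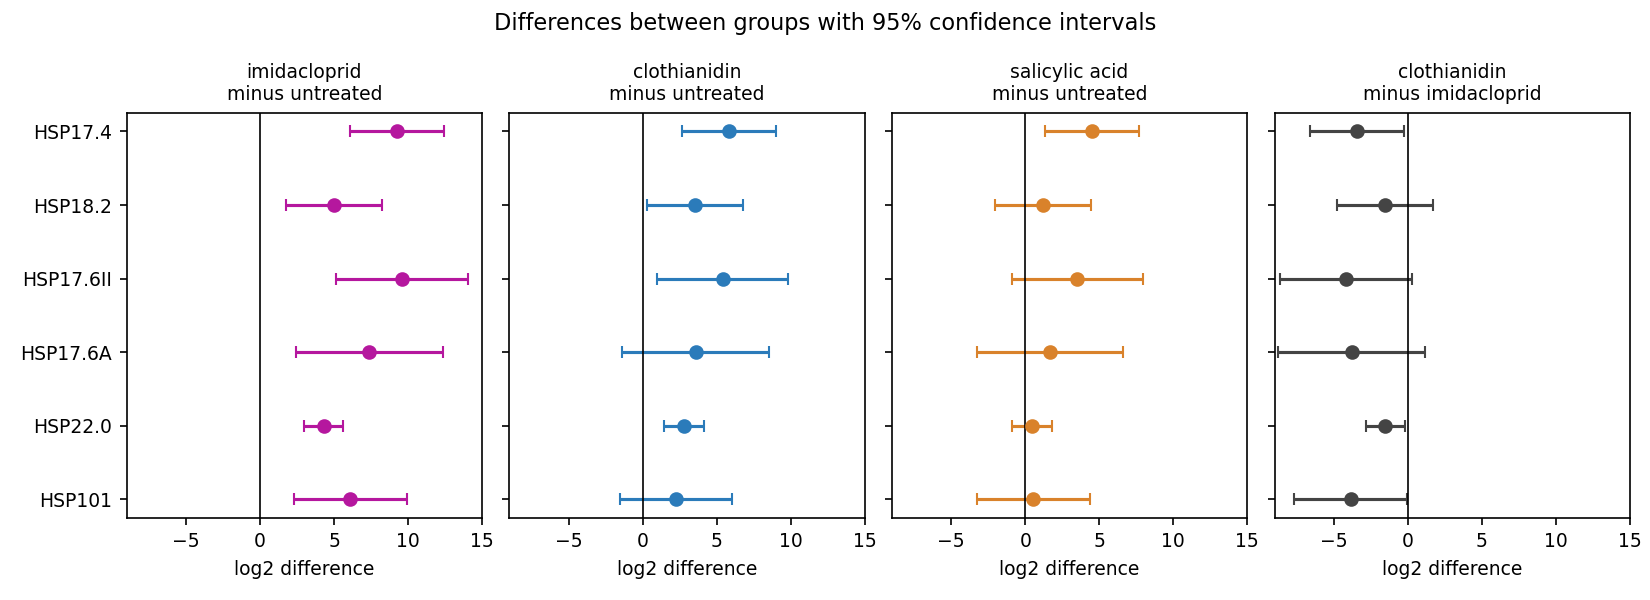
Log2 differences (x axis) of the 6 genes (rows) in 4 comparisons, each point a difference of 2 arrays against 2 and each bar its 95% confidence interval from the fit of all 8 arrays. Every interval lies above 0 for imidacloprid against untreated leaves, while those for salicylic acid include 0 except that of HSP17.4.

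Clothianidin, the other insecticide, was compared with untreated leaves at the same dose and day. The means of the 6 heat shock genes were higher by 2.25 to 5.81, with a median of 3.54 beside -0.02 over all probe sets. For 5 of the 6, all but HSP101, both clothianidin arrays lay above both untreated arrays, against 10.0% of all probe sets. In limma's test 0 of the 6 passed (adjusted p = 0.996 for each), as did 0% of all probe sets. An unadjusted p under 0.05 was reached by 4 of the 6, all higher, against 1.11% of all probe sets in that direction. The trend and robust prior also called 0 of the 6. With only the clothianidin and untreated arrays fitted, limma's unadjusted p was 0.0230 for HSP22.0 and 0.0195 for HSP17.4. It was above 0.05 for the rest, at 0.101 for HSP18.2, 0.0869 for HSP17.6II, 0.210 for HSP17.6A and 0.318 for HSP101. The share of all probe sets in this setting was not counted.

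The clothianidin replicates differed from each other at each of the 6 genes, always with replicate 1 higher. HSP17.6A measured 8.78 and 3.53 on replicates 1 and 2, and this gap of 5.24 was the 18th largest in that direction among the 22746 probe sets. HSP17.6II measured 10.45 and 5.50, a gap of 4.96 that ranked 26th. HSP101 measured 7.50 and 3.09. Replicate 2 of HSP101 thus lay between its untreated values, while replicate 1 lay far above them. The median gap of the 6 genes was 3.93, against 0.02 over all probe sets, of which 59.0% were higher on replicate 1.

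The remaining genes had narrower gaps. HSP18.2 measured 7.48 and 4.03 with clothianidin, HSP17.4 10.70 and 7.88, and HSP22.0 5.88 and 4.50. All 3 stayed above their untreated values on both arrays. Taken within replicate number 1, the differences from the untreated array ran from 3.25 for HSP22.0 to 7.89 for HSP17.6II. Within number 2 they ran from 0.19 for HSP101 to 4.20 for HSP17.4. The log2 difference over both replicates was 5.81 for HSP17.4 (SE 1.22; 2.63 to 8.98), the 5th highest of all probe sets, and 2.79 for HSP22.0 (SE 0.51; 1.45 to 4.12). For HSP101 it was 2.25 (SE 1.46; -1.55 to 6.06).

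Without clothianidin replicate 1 the difference of HSP101 was 0.05, and without replicate 2 it was 4.46. Clothianidin replicate 2 also had the higher actin 3′ minus 5′ difference of its pair, 1.75 against 1.04; the part of this in the gap between the replicates was not tested. Untreated replicate 2, with the highest actin difference of all arrays, 2.17, differed from untreated replicate 1 by at most 0.44 at the 6 genes. Its values at these genes were low, from 2.17 for HSP18.2 to 3.68 for HSP17.4. This small gap therefore cannot tell how RNA quality bears on higher values.

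**Figure D3:**
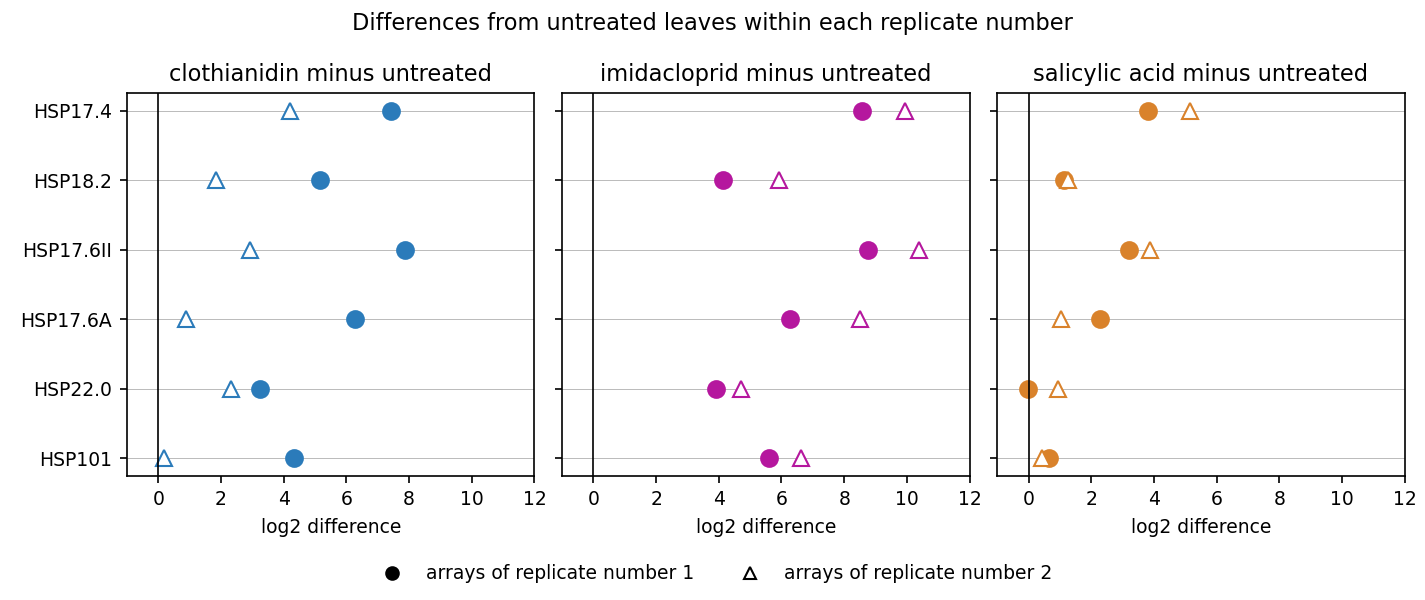
Log2 difference from the untreated array of the same replicate number (x axis) for the 6 genes (rows) in 3 treatments; filled circles are number 1 and open triangles number 2. Circles lie right of triangles for every gene with clothianidin and left of them for every gene with imidacloprid.

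The imidacloprid replicates were ordered the other way, with replicate 2 higher at each of the 6 genes. The gaps ran from 0.35 for HSP22.0 to 2.37 for HSP17.6A, while 60.3% of all probe sets were higher on imidacloprid replicate 1. Even so, the 6 genes differed from untreated leaves by 3.91 to 8.75 within number 1 and by 4.70 to 10.40 within number 2. The lower imidacloprid array was also above both untreated arrays for each of them.

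Salicylic acid, at the same dose and day, was compared with no treatment as well. The 6 genes divided into HSP17.4 and HSP17.6II, which lay several log2 units above untreated leaves, and 4 that lay within 1.67. HSP17.4 measured 7.11 and 8.83 with salicylic acid, a difference of 4.49 (SE 1.22; 95% confidence interval 1.31 to 7.66) and the 27th highest of all probe sets. HSP17.6II measured 5.76 and 6.44, a difference of 3.53 (SE 1.71; -0.93 to 7.98). Both genes were clearly above their untreated values on both arrays, at 22.4-fold and 11.5-fold, the second on a baseline near background.

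The other 4 genes showed smaller differences with salicylic acid. HSP17.6A measured 4.81 and 3.68 and HSP18.2 3.42 and 3.43, with differences of 1.67 and 1.19. HSP101 measured 3.82 and 3.35, 0.54 above the untreated mean (-3.26 to 4.35). HSP22.0 measured 2.60 and 3.12, and its groups overlapped, with a difference of 0.45 (-0.88 to 1.79). For 5 of the 6, all but HSP22.0, the arrays did not overlap with the untreated ones, against 8.28% of all probe sets in that direction. In limma's test 0 of the 6 passed (adjusted p = 0.975 for each), as did 0% of all probe sets. An unadjusted p under 0.05 was reached by 1 of the 6, HSP17.4, against 1.51% of all probe sets on the higher side, and the trend and robust prior called 0. With only the salicylic acid and untreated arrays fitted, limma's unadjusted p was 0.00086 for HSP18.2, 0.0025 for HSP17.6II and 0.0145 for HSP17.4. It was above 0.05 for HSP22.0, HSP101 and HSP17.6A, and the adjusted p was 0.926 for each gene. The share of all probe sets in this setting was not counted. HSP17.4 and HSP17.6II were also the 2 genes with the largest differences for both insecticides, comparisons that share the untreated arrays.

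The 2 insecticides were set directly against each other at the matched dose and day, 1 of 3 pairs of compounds compared. Clothianidin minus imidacloprid, the mean difference was negative for 6 of the 6 genes, with a median of -3.62 beside -0.04 over all probe sets. HSP17.6II differed by -4.17 (SE 1.71; -8.63 to 0.28), HSP101 by -3.86 (SE 1.46; -7.66 to -0.05), HSP17.6A by -3.81 (SE 1.90; -8.76 to 1.15) and HSP17.4 by -3.44 (SE 1.22; -6.62 to -0.26). HSP22.0 and HSP18.2 each differed by -1.52, with intervals of -2.86 to -0.18 and -4.76 to 1.73. For 4 of the 6 both clothianidin arrays lay below both imidacloprid arrays, and 43.9% of all probe sets did the same. The exceptions were HSP18.2 and HSP17.6A, at which clothianidin replicate 1 was as high as or higher than imidacloprid replicate 1: 7.48 against 6.43, and 8.78 against 8.78.

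In limma's test 0 of the 6 genes differed between the insecticides (adjusted p from 0.329 to 0.595), where 0.0967% of all probe sets did. An unadjusted p under 0.05 was reached by 3 of the 6, all lower with clothianidin, against 7.41% of all probe sets in that direction, and the trend and robust prior called 0 of the 6. Within replicate number 1 the differences ran from -1.29 for HSP101 to 1.04 for HSP18.2, and within number 2 from -2.38 for HSP22.0 to -7.61 for HSP17.6A. Without clothianidin replicate 2 the difference of HSP18.2 was 0.21, of the opposite sign. The intervals of HSP18.2, HSP17.6II and HSP17.6A include 0 and those of HSP22.0, HSP101 and HSP17.4 do not. These intervals rest on the spread pooled over the 4 groups, which at HSP101 ran from SD 0.19 in untreated leaves to 3.12 with clothianidin. With only the arrays of the 2 insecticides fitted, limma's unadjusted p was 0.0871 for HSP22.0 and 0.134 for HSP101. The missed threshold does not show that the compounds act alike.

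Against salicylic acid, imidacloprid gave higher values on both arrays for 6 of the 6 genes, as for 41.7% of all probe sets. The log2 differences ran from 3.84 for HSP18.2 to 6.05 for HSP17.6II (SE 1.71; 1.59 to 10.50). HSP101 differed by 5.57 (SE 1.46; 1.76 to 9.37) and HSP22.0 by 3.85 (SE 0.51; 2.51 to 5.19). In limma's test 0 of the 6 passed (adjusted p from 0.154 to 0.347), against 0.0835% of all probe sets. An unadjusted p under 0.05 was reached by 6 of the 6 and by 7.44% of all probe sets on the higher side, and the trend and robust prior called 0 of the 6.

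Clothianidin and salicylic acid were not separated in this way. The means differed by 1.32 for HSP17.4 to 2.33 for HSP22.0, higher with clothianidin for 6 of the 6. Only HSP22.0 and HSP18.2 had both clothianidin arrays above both salicylic acid arrays, a pattern that 8.32% of all probe sets had. In limma's test 0 of the 6 passed (adjusted p = 1.000 for each), as did 0% of all probe sets. The unadjusted p was under 0.05 for 1 of the 6, HSP22.0, against 0.646% of all probe sets on the higher side, and the trend and robust prior called 0. Clothianidin replicate 1 exceeded both salicylic acid arrays at all 6 genes and replicate 2 at 2 of them, a description for which the shares of all probe sets were not counted. Without clothianidin replicate 1 the difference turned negative for 4 genes, to -0.49 for HSP101, -0.090 for HSP17.4, -0.60 for HSP17.6II and -0.71 for HSP17.6A.

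The 6 genes varied together. Pearson's r of their log2 values over the 8 arrays, which fall into 4 groups and so are not independent points, had a median of 0.94 over the 15 pairs and ran from 0.87 (HSP101 and HSP17.4) to 0.98 (HSP101 and HSP17.6A). Among probe sets named by a single locus with a mean at or above 2.49, the 5 whose values were most like the mean of the 6 genes over the 8 arrays were AT2G29500 (r = 0.99), AT1G53540 (0.98), Hop3 (0.97), AT5G37670 (0.96) and AT5G51440 (0.96). Of these, 4 are in the list of other small heat shock protein genes, and Hop3, a co-chaperone that links Hsp70 to Hsp90, is in the list of co-chaperones. AT2G29500 measured 3.04 and 3.23 in untreated leaves, 6.19 and 7.23 after salicylic acid, 10.19 and 6.18 after clothianidin, and 10.58 and 12.13 after imidacloprid. AT2G29500 was picked for this likeness, so its order of groups is a description.

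Of 15 other small heat shock protein genes listed, 10 were named by the probe annotation and so counted as measured. After imidacloprid 8 of the 10 had higher means than untreated leaves, with a median of 2.94 beside 0.02 over all probe sets, and 5 had an unadjusted limma p under 0.05, all higher, against 8.71% of all probe sets. None passed over all probe sets (smallest adjusted p = 0.0906). The largest differences were 8.26 (SE 1.42) for AT1G53540 and 8.22 (SE 1.43) for AT2G29500. AT1G53540 measured 2.31 and 3.26 in untreated leaves and 9.93 and 12.15 after imidacloprid. With clothianidin the list had a median of 1.56 and 2 genes higher at an unadjusted limma p under 0.05, against 1.11% of all probe sets. With salicylic acid it had a median of 0.34 and 0 such genes, against 1.51%. The family was not uniform: AT4G21870 and AT5G54660, chosen after their values were seen, differed by -1.55 and -1.35 with imidacloprid, and AT4G21870 by 2.36 with clothianidin.

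**Figure D4:**
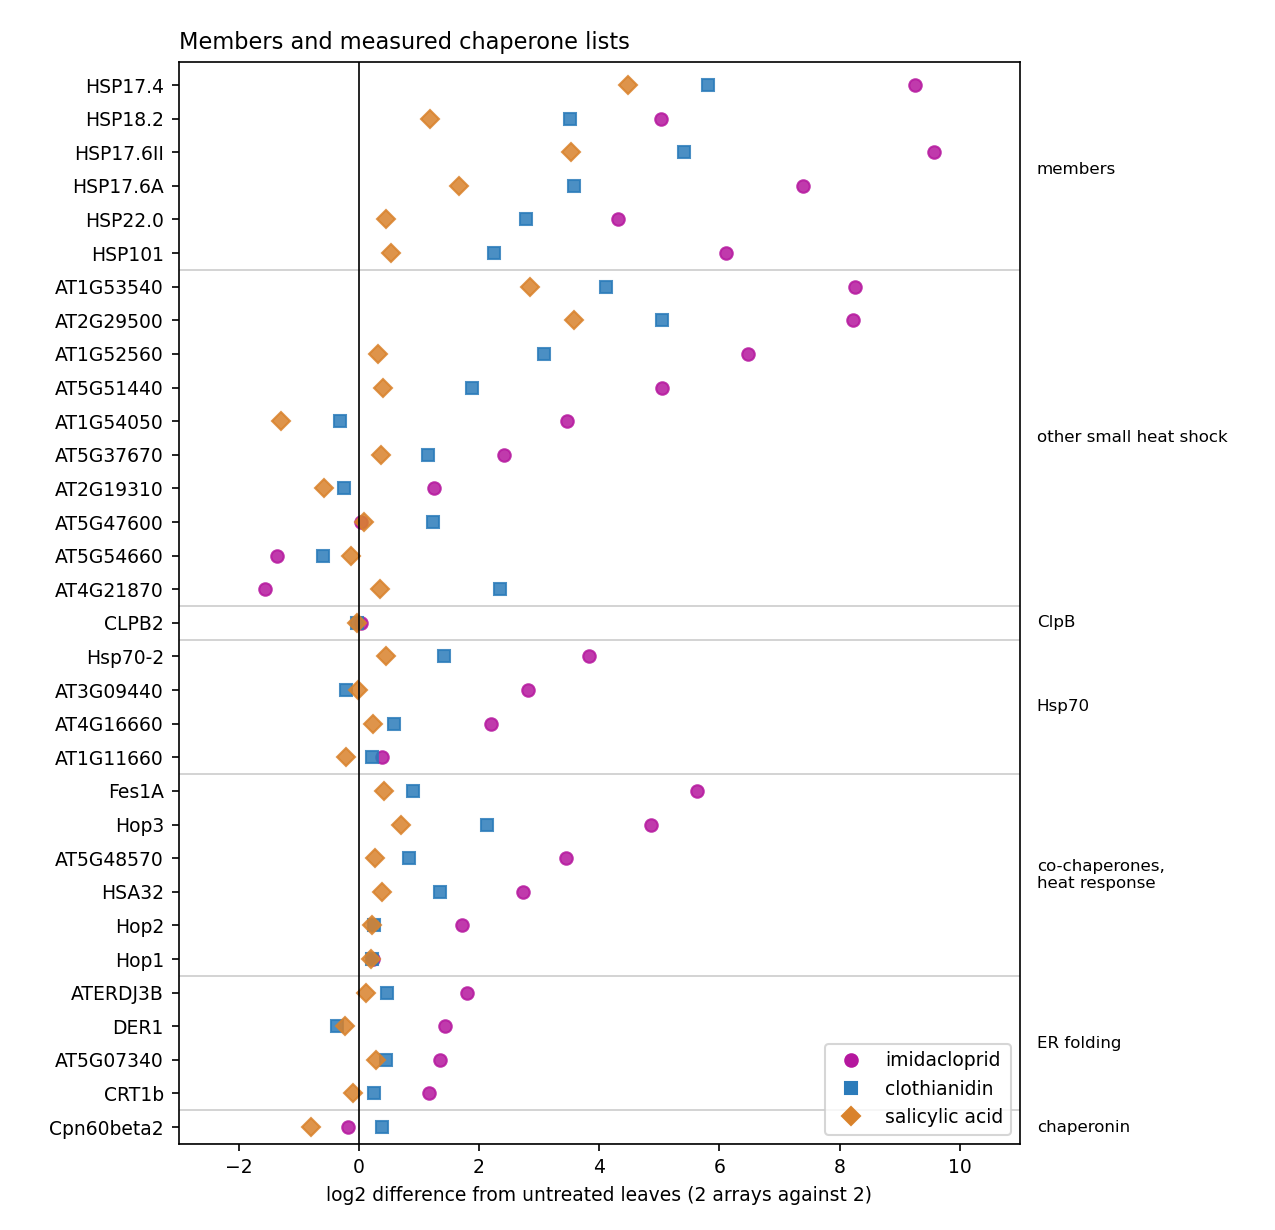
Log2 difference from untreated leaves (x axis, 2 arrays against 2) for the 6 genes and the measured genes of 6 chaperone lists (rows), with circles for imidacloprid, squares for clothianidin and diamonds for salicylic acid. Imidacloprid lies furthest right for each of the 6 genes and for most co-chaperone and Hsp70 genes, while CLPB2, the HSP101 relative, lies at 0.

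Partners of these chaperones were measured as well. Co-chaperones and other heat-response genes, 6 measured of 16 listed, were all higher on both imidacloprid arrays than on both untreated arrays, as were 40.2% of all probe sets. Their median was 3.09, and 5 had an unadjusted limma p under 0.05, all higher, against 8.71% of all probe sets. Fes1A, an exchange factor of Hsp70, differed by 5.63 (SE 1.61; limma adjusted p = 0.171) and Hop3 by 4.86 (SE 0.81; adjusted p = 0.0871). With clothianidin and salicylic acid the medians of the list were 0.87 and 0.33.

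Hsp70 chaperones, 4 measured of 13 listed, had a median of 2.51 after imidacloprid, with Hsp70-2 at 3.84 (SE 1.80) and AT3G09440 at 2.82 (SE 1.79), and 1 of the 4 higher at an unadjusted limma p under 0.05, against 8.71% of all probe sets. The 4 measured of 14 folding genes of the endoplasmic reticulum, the compartment of HSP22.0, differed by 1.16 to 1.79, with ATERDJ3B, a co-chaperone of that compartment, highest and DER1, a gene of protein disposal there, at 1.44. Of these 4, 2 were higher at an unadjusted limma p under 0.05, against the same 8.71%. CLPB2, the 1 measured of 3 ClpB relatives of HSP101, stayed between 2.35 and 2.46 on all arrays, near background. Cpn60beta2, the 1 measured of 8 chaperonin genes, differed by -0.19. In these lists 0 genes passed over all probe sets in any of the 6 comparisons. Of 7 Hsp90 and 21 heat shock factor genes listed, 0 were named by a single locus in the probe annotation, so none was analysed here.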

How the data were processed

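Each deposited value is a probe set's summary on the log2 scale. The authors used RMA and affy, per the submitters' processing notes; versions and other steps are not given in the sources used here. Of 22810 probe sets, 64 controls were left out. The probe annotation named 13436 probe sets by a single locus of TAIR10.1; 8730 probe sets are not in it. The files name no genome build, so no coordinates are given.

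One limma model (version 3.58.1, in R 4.3.3; lmFit, eBayes) with a mean per group and no block took all 8 arrays. It had 4 residual and 0.766 prior degrees of freedom. Each of the 6 pairs of groups was tested two-sided, and p-values were adjusted by Benjamini-Hochberg over all probe sets of the pair, with a threshold of 0.05. An exact permutation test of 2 arrays against 2 cannot go below p = 0.333, so p-values rest on the spread pooled over groups. Replicates came from independent experiments, and the number of arrays limits the precision. The fit was tried on simulated data with the same spread in every group. The clothianidin and untreated arrays differed in spread at these genes, so that trial does not bear on their calls. Intervals are 95% confidence intervals of the model.

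The members and gene lists were chosen with earlier results of these data known. All 6 members are named, with, per list without a call, the 2 genes differing most between imidacloprid and untreated leaves (all genes where fewer were measured), the 5 most alike genes and every measured marker; AT4G21870 and AT5G54660 were chosen after their values were seen. For a locus with several probe sets the brightest was used. Other settings tried were limma's trend with a robust prior, fitting the compared arrays alone, blocking on the replicate number, dropping dim probe sets, median centring, quantile normalizing again, and omitting each array. Chosen after seeing the data were a floor at the background level and omission of untreated replicate 2 with clothianidin replicate 2, whose actin differences were highest. Matplotlib 3.10.9 drew the figures.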

Additional observations from a re-analysis of the deposited data

How the results depend on the processing

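For imidacloprid against untreated leaves, where 0 of the 6 genes passed in limma, 1 (HSP22.0, adjusted p = 0.0479) passed with the trend and robust prior, 2 (HSP22.0 and HSP17.4) passed with dim probe sets left out, and the same 2 passed with arrays centred on medians. Leaving out each array in turn gave 0 to 3 of the 6 there and 0 in the other 5 comparisons; a group then left with 1 array is assumed to vary like the others. With the replicate block, and likewise with only the arrays compared, 0 of the 6 passed in each of the 6 comparisons. Replicate numbers were not taken as pairs, since the labels do not say that a number marks a shared experiment across groups. Differences between replicates correlated between groups at -0.0020 to 0.52.

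Of 96 values per comparison (6 genes, 16 alternatives), 0 changed sign for imidacloprid, clothianidin or salicylic acid against untreated leaves or for imidacloprid against salicylic acid. Sign changes were 2 between the insecticides, both HSP18.2 at 0.21 (without clothianidin replicate 2, alone or with untreated replicate 2; leaving out single arrays gave -3.24 to 0.21). For clothianidin against salicylic acid there were 4, all without clothianidin replicate 1, where leaving out single arrays gave -0.49 to 3.91 for HSP101, -0.090 to 2.73 for HSP17.4, -0.60 to 4.35 for HSP17.6II and -0.71 to 4.53 for HSP17.6A. With both arrays of highest actin difference left out, imidacloprid against untreated leaves gave 4.08 to 9.58 for the 6 genes. Centring shifted differences by at most 0.16.

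Over all probe sets, the 71 calls of imidacloprid against untreated leaves became 174 with only the arrays compared, 43 with the block, 182 without dim probe sets, 189 with centring, 1 to 465 leaving out each array and 0 without both arrays of highest actin difference. The 22 calls between the insecticides became 37 with the trend, 0 with only the arrays compared, 2 with the block, 1 to 279 leaving out each array and 0 without those 2 arrays, and the 19 of imidacloprid against salicylic acid became 42, 0, 3, 1 to 276 and 0. The 0 calls of clothianidin, salicylic acid and clothianidin against salicylic acid became up to 72, 82 and 19 leaving out each array, and 1, 1 and 0 with the floor. The cause was not tested.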
